A study of Homo sapiens with 9 samples.

Results

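RNA levels after knockdown of SUDS3 were compared gene by gene with RNA levels after knockdown of PHF12 in HEK293T, an established line of embryonic kidney origin that expresses the large T antigen of SV40. The comparison used 6 of the 9 libraries of the study, 3 from cells given an siRNA against SUDS3 and 3 from cells given an siRNA against PHF12. The other 3 libraries, from cells given a negative control siRNA, served only as a reference level and, in the model, for the spread between libraries. All cells were transfected with siRNA at 10 nM for 36 h with the same lipid reagent, so the controls carry the transfection too. Each target was hit by 1 siRNA, so loss of the target and any other action of the same siRNA cannot be told apart. The labels number the libraries of a group 1 to 3 and do not say whether they came from separate cultures, so p-values measure the spread between these libraries, which may be technical. RNA was poly-A selected, and the deposited count table held 58735 genes, of which 18088 had enough counts to be tested. These are bulk samples: a lower level of an RNA may come from fewer cells that make it or from less of it per cell, which cannot be told apart.

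SUDS3 (also called SDS3) and PHF12 are subunits of the SIN3 co-repressor family, protein assemblies built on the scaffolds SIN3A or SIN3B that carry the histone deacetylases HDAC1 and HDAC2 to chromatin. SUDS3 is a core subunit that helps hold the scaffold together and keeps the deacetylase active. PHF12 (also called Pf1) is a PHD finger protein best known from a smaller form of the complex with SIN3B and MORF4L1. REST, a repressor of neuronal genes in non-neuronal cells, recruits SIN3 through one end of the protein and the CoREST complex through the other.

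The sequences that go with the results come in a pair of sets. The first holds 3′ UTR stretches that hold the hexamer AATCAC or TACATT. An earlier scan of the same libraries picked these hexamers by their link to the fold changes of the PHF12 and SUDS3 arms, so what is said of them here is a description. Each stretch was read from GENCODE 29 transcripts (GRCh38), on the gene's strand, with the hexamer in capitals. HMGA2, UBE2E2, PRKX and NEU1 were lowest in the PHF12 knockdown and hold AATCAC:
HMGA2: ttaaataactgAATCACagtctctgaag
UBE2E2: gcttcaatcagAATCACtgtgcattact
PRKX: aaacatggagcAATCACtgtataatttt
NEU1: agccttggcaaAATCACcttccctttac
These lie at chr12:65951930-65951957 (+), chr3:23590363-23590390 (+), chrX:3606689-3606716 (-) and chr6:31859576-31859603 (-). In its longest 3′ UTR HMGA2 has 7 AATCAC sites and also 8 TACATT sites. PTGES3, TGFBR1, BRMS1L and REST were lowest in the SUDS3 knockdown and hold TACATT:
PTGES3: gaagaaagctgTACATTgttgcttgaga
TGFBR1: ctcctggttagTACATTctcagaggatt
BRMS1L: taaactatgacTACATTtatctgcaatt
REST: gtaaggtatatTACATTttatattcatt
These lie at chr12:56663795-56663822 (-), chr9:99149700-99149727 (+), chr14:35870792-35870819 (+) and chr4:56932186-56932213 (+). TGFBR1 has 7 TACATT sites and also 1 AATCAC site. The labels identify the siRNAs by catalogue number without their sequence.

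The second set holds promoters of neuronal genes, shown because they carry the left and the right motif of the REST binding element RE1, searched as CAGCACC and GGACAGC on either strand, with no overlap between them. Among the 35116 RefSeq promoters of the same length (GRCh38.p14, 250 bases before to 50 after the start), 7.75% hold CAGCACC, 6.03% hold GGACAGC and 0.738% hold both. A list of REST-repressed neuronal genes had 26 tested genes. Earlier results from these libraries had led to 7 of the 26 being listed, UNC13A among them, so the count that follows is a description. Of the 26 genes, 14 had a promoter in this table and 3 held both motifs. Those 3 follow on the gene's strand, with the motifs in capitals:
UNC13A: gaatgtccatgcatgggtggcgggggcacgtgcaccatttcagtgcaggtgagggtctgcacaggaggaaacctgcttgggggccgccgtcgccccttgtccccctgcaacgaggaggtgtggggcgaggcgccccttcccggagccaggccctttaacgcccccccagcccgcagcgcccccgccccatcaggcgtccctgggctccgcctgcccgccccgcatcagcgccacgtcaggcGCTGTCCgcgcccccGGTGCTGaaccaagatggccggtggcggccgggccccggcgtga
SCG3: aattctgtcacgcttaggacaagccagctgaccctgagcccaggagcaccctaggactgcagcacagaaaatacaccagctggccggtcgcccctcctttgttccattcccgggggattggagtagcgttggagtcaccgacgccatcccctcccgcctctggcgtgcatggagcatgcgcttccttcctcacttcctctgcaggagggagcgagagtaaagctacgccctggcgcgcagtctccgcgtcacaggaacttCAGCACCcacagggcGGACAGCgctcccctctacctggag
CELSR3: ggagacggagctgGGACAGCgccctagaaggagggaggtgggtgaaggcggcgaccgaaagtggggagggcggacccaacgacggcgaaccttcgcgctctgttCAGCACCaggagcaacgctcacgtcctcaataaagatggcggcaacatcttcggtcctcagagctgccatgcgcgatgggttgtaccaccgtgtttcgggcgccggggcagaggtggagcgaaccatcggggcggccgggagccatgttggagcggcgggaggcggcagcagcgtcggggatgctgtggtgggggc
The UNC13A promoter lies at chr19:17688305-17688604 (-), that of SCG3 at chr15:51681253-51681552 (+) and that of CELSR3 at chr3:48662837-48663136 (-). Read on the strand that matches, in UNC13A and SCG3 the left motif comes before the right one, 8 bases apart. In CELSR3 the order is reversed, with 84 bases between the motifs. A match is a match of letters only, and says nothing of whether REST binds there in these cells.

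Each siRNA lowered its own target. SUDS3 (ENSG00000111707, chr12:118376380-118418031, +) measured 21.1, 22.3 and 22.9 CPM (counts scaled to library size, with TMM factors) in the SUDS3 knockdown libraries and 81.4, 80.1 and 81.5 CPM in the PHF12 knockdown libraries. PHF12 (ENSG00000109118, chr17:28905250-28951771, -) measured 27.9, 24.5 and 28.3 CPM in the PHF12 knockdown and 59.5, 62.0 and 62.9 CPM in the SUDS3 knockdown. The 2 groups did not overlap for either gene. The log2 fold change of SUDS3 knockdown over PHF12 knockdown was -1.87 (SE 0.05, adjusted p = 3.98e-26) for SUDS3 and 1.19 (SE 0.06, adjusted p = 2.11e-18) for PHF12. This and every adjusted p below come from edgeR's quasi-likelihood test with Benjamini-Hochberg adjustment over the 18088 genes, and a gene passed at an adjusted p under 0.05. Against the control mean of 111 ± 3.31 CPM (SD, n = 3), the SUDS3 RNA stood at 19.9% in its own knockdown and at 72.9% in the PHF12 knockdown. Against the control mean of 49.9 ± 0.938 CPM (SD, n = 3), the PHF12 RNA stood at 54.0% in its own knockdown and at 123% in the SUDS3 knockdown. The remaining PHF12 RNA was thus a larger share of its control level than the remaining SUDS3 RNA.

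The knockdowns of these subunits of one complex family left different RNA levels at 7937 genes, 43.9% of those tested. With the SUDS3 siRNA 4113 genes (22.7%) were higher than with the PHF12 siRNA and 3824 (21.1%) were lower. Scaling the libraries by their upper quartile moved this split to 3331 higher and 4749 lower, and so 41.2% of calls higher in place of 51.8%. The log2 fold change of all genes tested had a median of -0.01 and a median size of 0.28, so most differences were small. At least 2-fold differences were fewer, with 324 genes higher (1.79%) and 595 lower (3.29%) in the SUDS3 knockdown. Their excess on the low side lay at low levels: 108 were higher and 335 lower under an average log2 CPM of 1, 79 and 187 from 1 to 4, 121 and 65 from 4 to 7, and 16 and 8 above. In limma on log2(TPM + 1) the 2-fold counts were 151 higher and 152 lower. The 3 libraries of one knockdown lay wholly on one side of the 3 of the other for 51.8% of genes. Of 13868 protein-coding genes 28.1% were higher and 25.1% lower, against 6.22% and 9.99% of 981 lincRNAs. Direction varied with level: under an average log2 CPM of 1, 2.71% of genes were higher and 7.71% lower, and from 1 to 4, 19.6% and 23.6%. From 4 to 7, 37.4% of genes were higher and 24.8% lower (median 0.06), while at 7 and above 31.3% were higher and 42.6% lower.

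**Figure D1:**
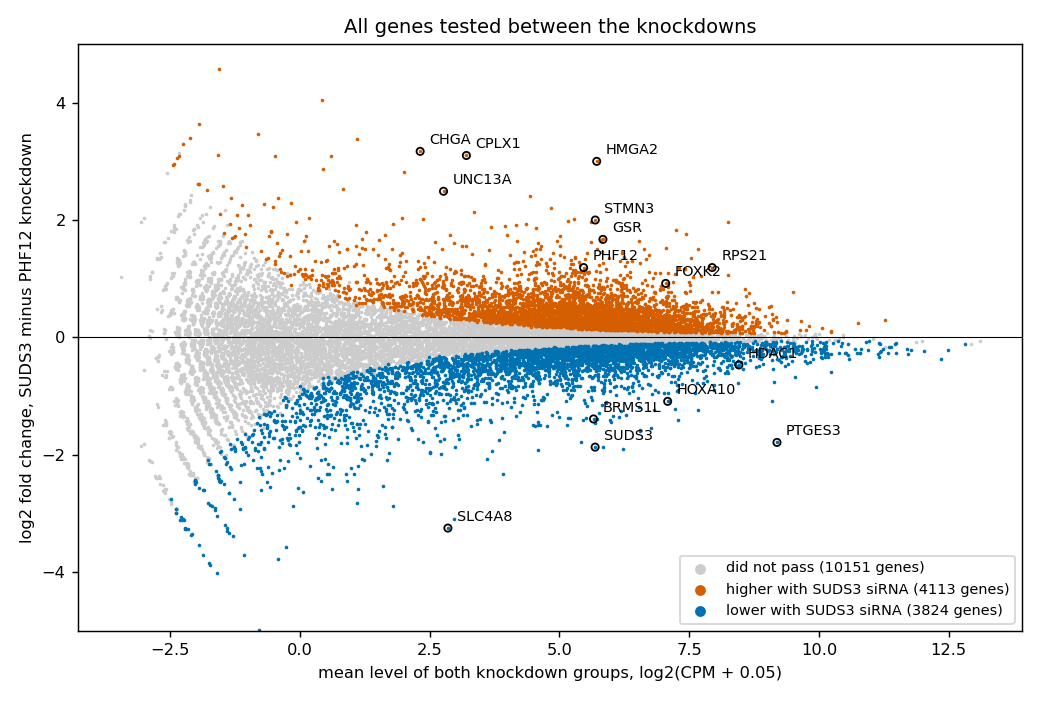
Each point is one of the 18088 genes tested, with on the x axis its mean level over both knockdown groups on a log2(CPM + 0.05) scale and on the y axis the log2 fold change of SUDS3 over PHF12 knockdown. The 4113 higher genes lie above the zero line and the 3824 lower genes below it, with SUDS3 at -1.87 and PHF12 at 1.19; 15 genes lie outside the plotted range.

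Among protein-coding genes with an average log2 CPM of at least 1, the 12 largest positive differences were CHGA, CPLX1, HMGA2, RUNDC3A, UNC13A, UBE2E2, PRKX, AP3B2, CRADD, LRRC8A, TPPP and STMN3. CHGA makes a secretory granule protein, CPLX1 and UNC13A act in vesicle release at synapses, AP3B2 makes a neuronal vesicle coat subunit and STMN3 a microtubule regulator. CHGA (ENSG00000100604, chr14:92923080-92935293, +) measured 10.4, 9.09 and 7.26 CPM in the SUDS3 knockdown against 1.33, 0.791 and 0.833 CPM in the PHF12 knockdown, a log2 fold change of 3.17 (SE 0.22, adjusted p = 1.51e-14). CPLX1 (ENSG00000168993, chr4:784957-826198, -) measured 17.0, 16.9 and 15.7 CPM against 2.16, 2.37 and 1.20 CPM (3.10, SE 0.16, adjusted p = 3.55e-18). The control means, 2.26 ± 0.530 CPM for CHGA and 6.79 ± 0.712 CPM for CPLX1 (SD, n = 3), lay between those of the knockdowns.

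HMGA2 (ENSG00000149948, chr12:65824131-65966295, +), a DNA-bending chromatin protein of embryonic and tumour cells, had the same size of difference with another pattern. It measured 99.3, 88.0 and 93.6 CPM with the SUDS3 siRNA, 11.6, 11.1 and 12.3 CPM with the PHF12 siRNA and 92.6, 89.8 and 92.0 CPM in the controls. Its level with the SUDS3 siRNA overlapped the controls, and the log2 fold change was 3.00 (SE 0.06, adjusted p = 2.23e-30). UBE2E2, a ubiquitin-conjugating enzyme, showed this pattern too, at 37.5, 36.0 and 35.5 CPM against 5.74, 6.80 and 7.96 CPM, with controls from 31.1 to 37.2 CPM. PRKX, a protein kinase related to PKA, measured 49.0, 48.2 and 42.8 CPM against 10.3, 9.65 and 10.4 CPM, with controls from 34.3 to 36.2 CPM. CRADD, an adaptor of cell death signalling, measured 6.33, 6.59 and 5.79 CPM against 1.66, 1.5 and 1.39 CPM, with controls from 6.23 to 6.86 CPM. For UBE2E2, PRKX and CRADD the low group was the PHF12 knockdown, as for HMGA2. LRRC8A, the essential subunit of the volume-regulated anion channel, measured 64.0, 63.4 and 58.5 CPM against 13, 14.8 and 18.1 CPM, with controls in between, from 41.7 to 44.6 CPM.

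The 12 largest negative differences were SLC4A8, SYT11, C16orf45, MAP6, HAS2, PPFIA2, PALM3, PRRT2, NOS2, CSPG4, ANXA1 and FZD10. SYT11 is a synaptotagmin, MAP6 stabilises microtubules, and PPFIA2 and PRRT2 act at presynaptic sites. SLC4A8 (ENSG00000050438, chr12:51391317-51515763, +), a sodium-driven chloride-bicarbonate exchanger, measured 1.28, 1.33 and 1.47 CPM in the SUDS3 knockdown against 14.6, 12.2 and 12.1 CPM in the PHF12 knockdown, a log2 fold change of -3.25 (SE 0.17, adjusted p = 5.35e-18). SYT11 (ENSG00000132718, chr1:155859509-155885199, +) measured 1.28, 2.00 and 1.57 CPM against 14.1, 15.0 and 12.7 CPM (-3.10, SE 0.16, adjusted p = 6.38e-18). Control means were 2.63 ± 0.405 CPM for SLC4A8 and 3.71 ± 0.342 CPM for SYT11 (SD, n = 3), so both genes were highest in the PHF12 knockdown. FZD10, a Wnt receptor, measured 5.32, 6.26 and 4.51 CPM against 21.8, 18.2 and 22.2 CPM, with controls from 8.87 to 11.3 CPM. CSPG4, a cell surface proteoglycan, measured 1.56, 2.50 and 2.84 CPM against 9.23, 9.17 and 8.61 CPM, with controls from 4.12 to 5.58 CPM. ANXA1, a lipid-binding annexin, measured 2.20, 2.50 and 2.26 CPM against 7.59, 9.65 and 9.63 CPM, with controls from 4.48 to 5.17 CPM. In FZD10, CSPG4 and ANXA1 the controls lay between knockdowns that did not overlap.

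**Figure D2:**
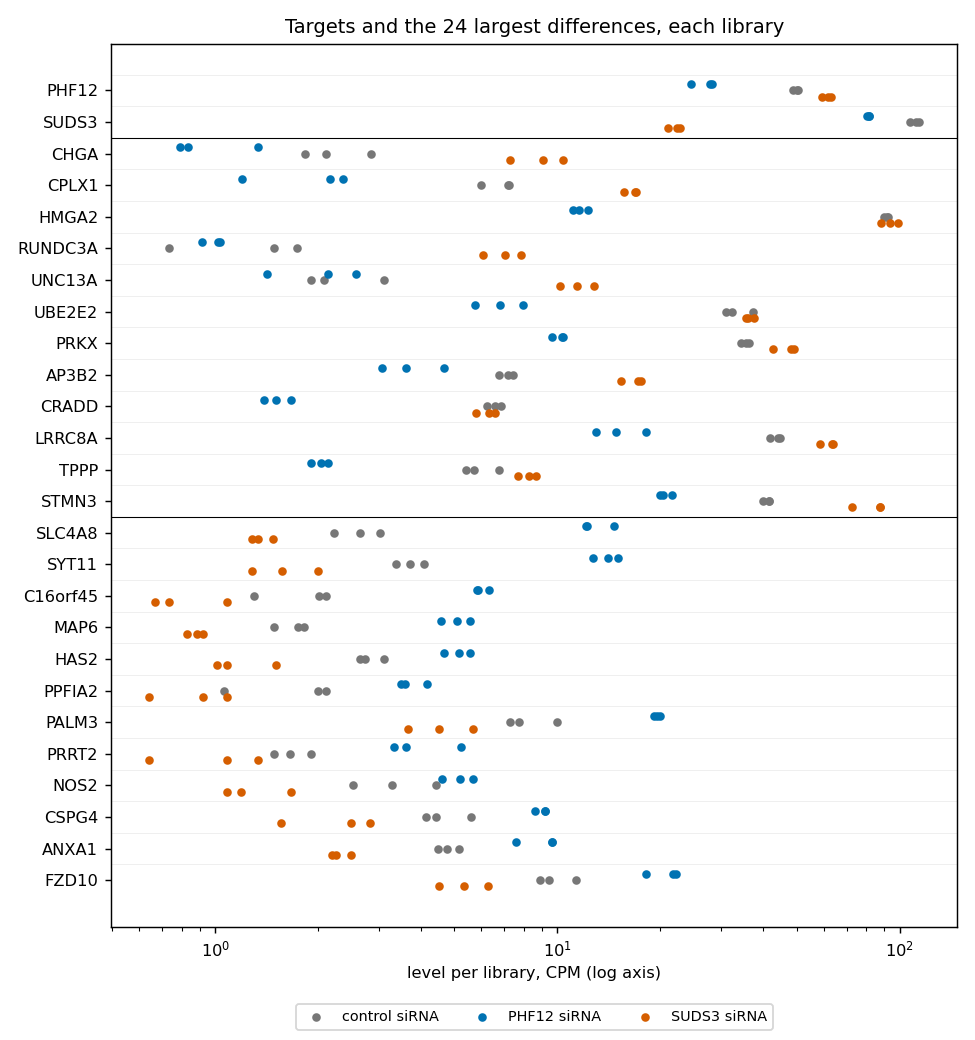
Each row is a gene and each point a library, with the level in CPM on a log axis. The upper rows are the siRNA targets, the middle rows the 12 largest positive and the lower rows the 12 largest negative differences of SUDS3 against PHF12 knockdown; in HMGA2 the SUDS3 knockdown (88.0 to 99.3 CPM) lies on the controls (89.8 to 92.6 CPM), while SLC4A8 is high with the PHF12 siRNA alone (12.1 to 14.6 CPM).

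Within the SIN3 complex and its partners, all 27 listed genes were tested. In the SUDS3 knockdown 14 were higher (51.9%), 7 were lower (25.9%) and 6 did not pass, with a median log2 fold change of 0.12. Over all genes 22.7% were higher and 21.1% lower, with a median of -0.01. From an average log2 CPM of 4 to 7, 37.4% of all genes were higher and 24.8% lower. With upper-quartile scaling 12 of the 27 were higher and 8 lower, with a median of 0.05. The counts for the list include the targets themselves. The scaffolds SIN3A and SIN3B were both slightly higher: SIN3A measured 156, 161 and 159 CPM against 132, 136 and 135 CPM (0.24 in log2, SE 0.04, adjusted p = 1.57e-06), and SIN3B 84.2, 80.7 and 81.8 CPM against 72.8, 67.9 and 71.3 CPM (0.22, SE 0.05, adjusted p = 0.000230). Their knockdown libraries did not overlap. The deacetylases parted: HDAC1 was lower at 295, 293 and 298 CPM against 420, 408 and 396 CPM (-0.47, SE 0.03, adjusted p = 2.00e-15), while HDAC2 did not pass (0.03, SE 0.03, adjusted p = 0.472). Controls had 276, 279 and 274 CPM of HDAC1, so it was the PHF12 knockdown that stood apart, at 148% of the control mean. Of the histone chaperones that sit beside the deacetylases, RBBP7 was lower (-0.42, SE 0.03, adjusted p = 2.67e-15) and RBBP4 did not pass (-0.04, SE 0.03, adjusted p = 0.279).

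The largest difference in the list after SUDS3 itself was at BRMS1L (ENSG00000100916, chr14:35826318-35932325, +), a paralog of SUDS3. It measured 29.5, 27.7 and 26.6 CPM in the SUDS3 knockdown, 71.9, 75.7 and 71.5 CPM in the PHF12 knockdown and 58.7 to 62.2 CPM in the controls (-1.39, SE 0.06, adjusted p = 3.38e-21). BRMS1, the other paralog, went the other way, at 85.3, 83.2 and 82.0 CPM against 68.0, 67.9 and 70.0 CPM (0.28, SE 0.05, adjusted p = 3.98e-06). The 3 members of this paralog family thus differed in direction, with SUDS3 and BRMS1L lower and BRMS1 higher. FOXK2, a forkhead factor that binds SIN3, measured 176, 174 and 170 CPM against 88.0, 90.0 and 97.0 CPM, with controls from 151 to 156 CPM (0.92, SE 0.04, adjusted p = 2.06e-20). Its paralog FOXK1 did not pass (-0.01, adjusted p = 0.950). Among further subunits, SAP30 (0.55), SAP130 (0.49), the ING readers of histone methylation ING2 (0.46) and ING1 (0.43), TET1 (0.40), EMSY (0.31) and ARID4B (0.20) were higher, and MORF4L1 (-0.19), which partners PHF12, was lower. Small differences at SAP30L (0.19), OGT (0.12), KDM5A (-0.14) and SAP18 (-0.10) passed with adjusted p of 0.0269, 0.00560, 0.0170 and 0.0472. These 4 calls were lost under several alternatives. Without SUDS3 knockdown replicate 2 the adjusted p was 0.0559 for SAP30L, 0.0514 for OGT, 0.208 for KDM5A and 0.218 for SAP18. The calls were also lost without PHF12 knockdown replicate 2 for SAP30L (0.0781), KDM5A (0.118) and SAP18 (0.110), without PHF12 knockdown replicate 3 for SAP30L (0.198) and SAP18 (0.139), without SUDS3 knockdown replicate 1 for SAP30L (0.0924) and SAP18 (0.0610), without SUDS3 knockdown replicate 3 for OGT (0.0684) and without control replicate 2 for SAP18 (0.0544). Upper-quartile scaling ended the calls of SAP30L (0.167) and OGT (0.244), limma on log2(TPM + 1) those of SAP30L (0.0873), KDM5A (0.0888) and SAP18 (0.0747), and testing without a low-count filter that of SAP18 (0.0805). ARID4A, GATAD1 and SINHCAF did not pass.

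**Figure D3:**
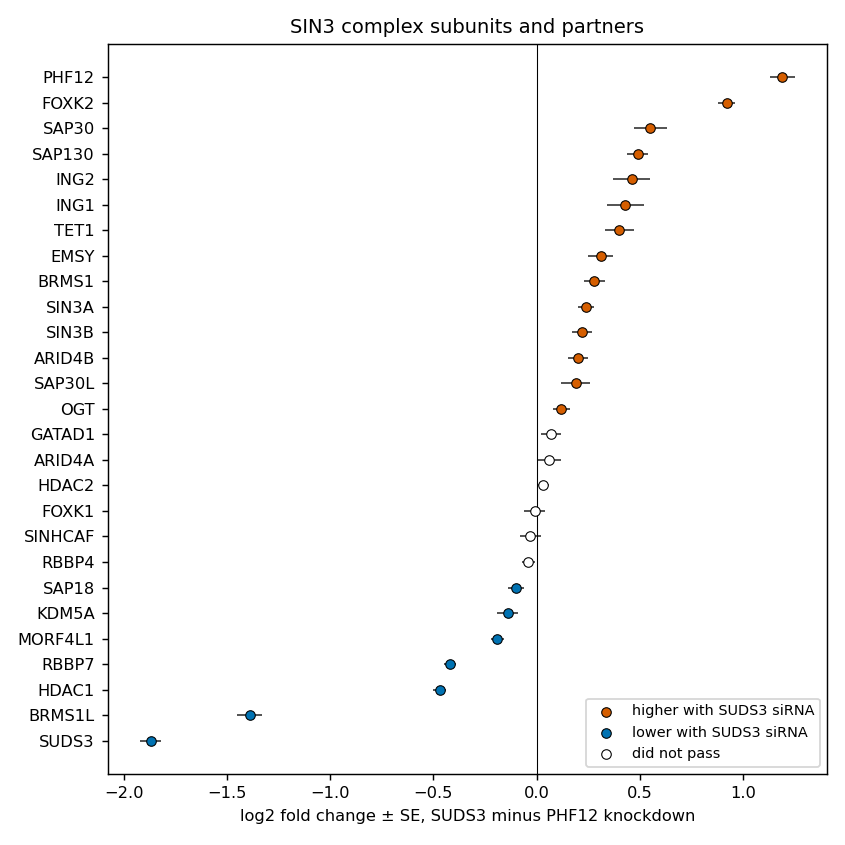
Points are the log2 fold changes of SUDS3 over PHF12 knockdown for the 27 SIN3 complex genes, with bars of 1 SE from the edgeR fit; filled points passed. SUDS3 (-1.87) and BRMS1L (-1.39) stand apart on the low side, PHF12 (1.19) and FOXK2 (0.92) on the high side, and most other subunits lie above zero.

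HOX genes, the clustered homeobox factors that set position along the body axis, were lower with the SUDS3 siRNA than with the PHF12 siRNA in all 4 clusters. Of 39 listed genes 38 were tested, all but HOXB1: 29 were lower, 2 were higher and 7 did not pass, with a median log2 fold change of -0.81 (21.1% of all genes were lower). Per library, the list's median against the control mean on a log2(CPM + 0.5) scale was 0.35, 0.29 and 0.34 in the PHF12 knockdown and -0.34, -0.39 and -0.43 in the SUDS3 knockdown. The knockdowns thus lay on either side of the controls. By cluster, 10 of 11 tested HOXA genes, 8 of 9 HOXB genes, 7 of 9 HOXC genes and 4 of 9 HOXD genes were lower. HOXA10 measured 87.8, 89.2 and 83.3 CPM in the SUDS3 knockdown, 180, 189 and 186 CPM in the PHF12 knockdown and 127 to 139 CPM in the controls (-1.09, SE 0.04, adjusted p = 3.16e-22). HOXA5 measured 90.8, 85.8 and 87.8 CPM against 174, 168 and 169 CPM (-0.95, SE 0.04, adjusted p = 2.24e-20). HOXA3 measured 17.2, 19.5 and 16.7 CPM against 46.5, 41.7 and 49.7 CPM (-1.36, SE 0.08, adjusted p = 5.93e-17). In all 3 genes the knockdown libraries did not overlap.

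HOXB13 and HOXD13 were higher. HOXB13 measured 25.5, 22.7 and 20.1 CPM in the SUDS3 knockdown against 13.3, 13.3 and 14.8 CPM in the PHF12 knockdown (0.72, SE 0.09, adjusted p = 3.43e-08). HOXD13 measured 127, 131 and 130 CPM against 92.8, 92.0 and 99.6 CPM (0.45, SE 0.04, adjusted p = 2.37e-11). Of the other genes numbered 13, HOXA13 (-0.12, adjusted p = 0.113) and HOXC13 (-0.05, adjusted p = 0.720), did not pass with TMM scaling. With upper-quartile scaling HOXA13 passed as lower (-0.19, adjusted p = 0.0111). HOXC8 (-0.21, adjusted p = 0.198) and the low-level genes HOXD1, HOXD3, HOXD4 and HOXD12 did not pass either. HOXC8 passed when PHF12 knockdown replicate 2 was left out (-0.35, adjusted p = 0.0311). Of the genes that passed and had a mean above 1 CPM in the PHF12 knockdown, the furthest on the low side were HOXC12 (-1.77), HOXB2 (-1.49) and HOXB4 (-1.40). HOX genes overlap one another and their antisense RNAs, and the sources used here do not say whether the authors' counting used strand. The 38 genes' counts may therefore share reads.

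**Figure D4:**
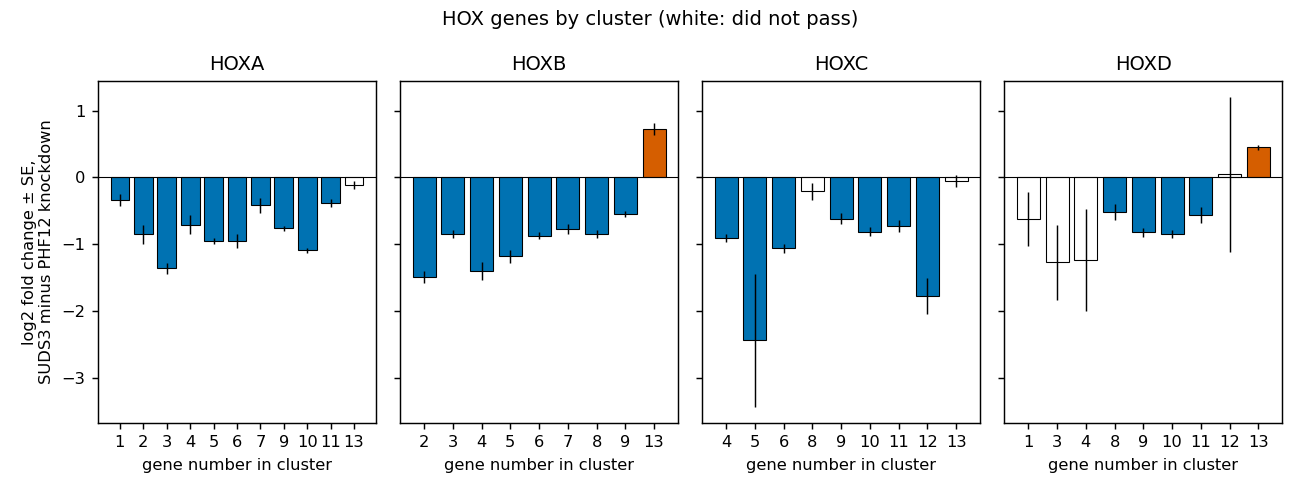
Bars are log2 fold changes of SUDS3 over PHF12 knockdown with error bars of 1 SE, in 4 panels for the clusters HOXA, HOXB, HOXC and HOXD, ordered by gene number; white bars did not pass. Bars point down except at HOXB13 (0.72), HOXD13 (0.45) and HOXD12, which did not pass.

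Of 34 listed neuronal genes known as targets of REST 26 were tested, and 7 of these were added because earlier results from these libraries showed them. Of the 19 others 8 were higher (42.1%) and 2 lower in the SUDS3 knockdown, with a median log2 fold change of 0.72, against 28.1% higher, 25.1% lower and a median of 0.00 over protein-coding genes. With the added genes 15 were higher and 2 lower, with a median of 1.03. Per library the median of the 19 against the control mean was 0.30, 0.40 and 0.27 in the SUDS3 knockdown and -0.21, -0.10 and -0.25 in the PHF12 knockdown. With the added genes it was 0.66, 0.57 and 0.56 against -0.26, -0.22 and -0.24. SYP, a synaptic vesicle membrane protein, measured 76.9, 79.0 and 77.9 CPM in the SUDS3 knockdown, 19.9, 19.1 and 20.6 CPM in the PHF12 knockdown and 34.4 to 36.5 CPM in the controls (1.97, SE 0.06, adjusted p = 5.36e-25). STMN3 measured 87.5, 87.8 and 72.7 CPM against 19.9, 20.3 and 21.7 CPM (2.00, SE 0.07, adjusted p = 8.34e-24). For SYP and STMN3 the controls again lay between the knockdowns.

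Of the genes whose promoters are printed above, UNC13A, which primes vesicles for release, measured 10.2, 11.4 and 12.8 CPM against 2.58, 1.42 and 2.13 CPM (2.49, SE 0.19, adjusted p = 2.24e-13). UNC13A was among the list members added because earlier results from these libraries showed them. SCG3, a granin of secretory granules, measured 5.23, 2.50 and 3.73 CPM against 0.250, 0.554 and 0.278 CPM (3.38, SE 0.34, adjusted p = 2.27e-10). CELSR3, an adhesion receptor, did not pass, at 37.1, 39.3 and 37.2 CPM against 41.4, 37.1 and 39.5 CPM (-0.05, adjusted p = 0.549). The genes with RE1 motifs 8 bases apart were higher with the SUDS3 siRNA. CELSR3, which did not pass, holds the motifs 84 bases apart and in the reverse order. So few genes allow no rule on spacing or order. The lower genes of the list were NEFL, a neurofilament (-0.26, SE 0.05, adjusted p = 6.76e-05), and L1CAM, an adhesion molecule (-0.80, SE 0.26, adjusted p = 0.0107). L1CAM had under 3 CPM in every library and lost its call without PHF12 knockdown replicate 3 (adjusted p = 0.0527) or without SUDS3 knockdown replicate 1 (adjusted p = 0.0501).

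REST itself was lower in the SUDS3 knockdown, at 34.9, 35.0 and 36.4 CPM against 61.6, 65.3 and 69.7 CPM in the PHF12 knockdown, with controls from 46.7 to 51.3 CPM (-0.89, SE 0.06, adjusted p = 2.55e-15). Its control level lay between knockdowns that did not overlap. Its CoREST partner RCOR1 was higher, at 60.4, 63.1 and 59.3 CPM against 33.9, 36.5 and 34.8 CPM, with controls from 53.1 to 54.7 CPM (0.80, SE 0.06, adjusted p = 1.11e-14). In the list of NuRD and CoREST genes, chromatin complexes that share HDAC1 and HDAC2 with SIN3, 11 of 25 were lower and 5 higher, with a median of -0.08. Lower members included the NuRD subunits GATAD2B (-0.70), MBD3 (-0.66) and CHD3 (-0.45), and higher members the CoREST subunits HMG20B (0.49) and KDM1A (0.25), the latter a histone demethylase. HDAC1 and RBBP7 count in both this list and the SIN3 list. Whether REST's level takes part in the neuronal genes' difference was not tested.

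Genes of synaptic vesicle release were called in both directions. Of 32 listed genes 30 were tested, and 11 were higher (36.7%, against 28.1% of protein-coding genes) and 8 lower, with a median of 0.32. Without 3 genes added from earlier results of these data, 8 of 27 were higher and 8 lower, with a median of 0.14. Some of the higher genes stand in the REST list too, among them CPLX1, UNC13A, SYP and BSN, a scaffold of the presynaptic zone (1.93). PCLO, the other large scaffold there, measured 23.7, 23.8 and 24.6 CPM against 12.6, 12 and 14.8 CPM (0.87, SE 0.09, adjusted p = 4.34e-10). The synaptotagmins differed among themselves: SYT7 was higher (1.28) and SYT1 (-0.48) and SYT11 (-3.10) were lower. SYNGR3, a vesicle membrane protein, measured 4.31, 5.42 and 5.59 CPM against 14.6, 13.2 and 15.7 CPM (-1.51, SE 0.13, adjusted p = 1.68e-12). SV2A, a vesicle glycoprotein, was lower (-0.47), and the SNARE protein VAMP2 did not pass (0.02, adjusted p = 0.833).

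Lysosome and autophagy genes were higher more often than lower with the SUDS3 siRNA, as were all genes at middle levels (37.4% higher and 24.8% lower from an average log2 CPM of 4 to 7). Of 38 lysosomal hydrolases and membrane proteins 17 were higher (44.7%) and 6 lower (median 0.15), of 17 subunits of the V-ATPase, the proton pump of lysosomes, 11 were higher and 4 lower (0.18), and of 34 tested autophagy genes 18 were higher and 5 lower (0.16). The same medians with upper-quartile scaling were 0.08, 0.12 and 0.09, and 10 autophagy genes were then lower. ATP6V1A, the catalytic subunit of the pump, measured 238, 231 and 239 CPM in the SUDS3 knockdown, 62.4, 70.6 and 66.5 CPM in the PHF12 knockdown and 187 to 199 CPM in the controls (1.83, SE 0.04, adjusted p = 9.75e-29). NEU1, the lysosomal sialidase, measured 71.3, 76.7 and 74.0 CPM against 22.5, 23.2 and 26.2 CPM, with controls from 59.0 to 63.7 CPM (1.63, SE 0.06, adjusted p = 2.13e-22). MAP1LC3B, the LC3 protein of autophagosomes, measured 104, 107 and 115 CPM against 42.5, 42.3 and 41.3 CPM, with controls from 91.4 to 98.2 CPM (1.37, SE 0.05, adjusted p = 8.62e-23). In these 3 genes the PHF12 knockdown was the low group and lay well under the controls. ATG4A, a protease that processes LC3-family proteins, differed likewise (1.56), and CALCOCO2, an autophagy receptor, less (0.61).

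Other members of these lists were lower. The hydrolase genes IDS (-0.86, SE 0.05, adjusted p = 4.18e-16) and GLA (-0.81, SE 0.03, adjusted p = 2.91e-21) were lower with the SUDS3 siRNA. IDS measured 53.2, 56.9 and 51.7 CPM against 97.4, 98.5 and 97.5 CPM, with controls from 49.7 to 56.9 CPM, so the PHF12 knockdown was the high group there. The pump subunits ATP6V1G1 (-0.53) and ATP6V1D (-0.38) and the autophagy regulators BECN1 (-0.49) and ULK2 (-0.74) were lower as well. CTSA, another lysosomal enzyme, measured 109, 109 and 105 CPM against 112, 103 and 109 CPM and did not pass (adjusted p = 0.983), although its controls were at 65.3 to 73.3 CPM. Among lysosomal members whose longest 3′ UTR holds neither hexamer, 10 of 26 were higher and 4 lower, with a median of 0.03. In the V-ATPase list the same count was 6 of 10 higher and 3 lower (0.15), and in the autophagy list 9 of 17 higher and 1 lower (0.15).

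Lipid synthesis genes were higher in the SUDS3 knockdown at many steps. Of 24 tested genes of cholesterol synthesis and uptake 15 were higher (62.5%) and 4 lower (16.7%), with a median of 0.23 (0.16 with upper-quartile scaling). Of all genes at an average log2 CPM of 4 to 7, 37.4% were higher and 24.8% lower. LSS, the cyclase that makes lanosterol, measured 143, 152 and 138 CPM against 70.1, 61.8 and 68.6 CPM, with controls from 89.0 to 100 CPM (1.11, SE 0.05, adjusted p = 8.55e-20). The late enzyme DHCR7 (0.57), the earlier enzymes MVK (0.59) and SQLE (0.32) and the regulator SREBF2 (0.44) were higher, while PMVK (-0.39) and FDPS (-0.31) were lower. Per library the list median was -0.16, -0.17 and -0.19 against the control mean in the PHF12 knockdown and 0.10, 0.03 and 0.09 in the SUDS3 knockdown. Of 18 fatty acid synthesis genes 9 were higher and 4 lower, with a median of 0.13. SCD, a desaturase, measured 906, 917 and 917 CPM against 547, 533 and 532 CPM, with controls from 820 to 851 CPM (0.77, SE 0.03, adjusted p = 1.98e-23). The elongase ELOVL5 (0.86) and ACLY (0.35), which makes cytosolic acetyl-CoA, were higher too. ACSL4, which activates polyunsaturated fatty acids, was lower at 36.1, 32.7 and 34.7 CPM against 81.6, 95.0 and 96.5 CPM, with controls from 77.5 to 84.3 CPM (-1.40, SE 0.06, adjusted p = 6.58e-21), and FASN did not pass (-0.01, adjusted p = 0.906).

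Redox and glucose genes held some of the larger differences. Of 20 NRF2 targets 8 were higher and 4 lower (median 0.09). GSR, glutathione reductase, measured 87.3, 84.7 and 89.0 CPM in the SUDS3 knockdown and 26.1, 25.6 and 30.4 CPM in the PHF12 knockdown, with controls from 89.3 to 90.9 CPM (1.67, SE 0.06, adjusted p = 1.17e-23). NQO1, a quinone reductase often used as the NRF2 marker, was lower, at 4.13, 4.09 and 5.10 CPM against 10.6, 9.25 and 10.6 CPM (-1.20, SE 0.14, adjusted p = 2.64e-09), and HMOX1 did not pass (-0.08, adjusted p = 0.343). The members of this list therefore did not move together. Of 35 tested hypoxia and glycolysis genes 16 were higher (45.7%) and 8 lower (22.9%), with a median of 0.11. With upper-quartile scaling 14 were higher and 8 lower, with a median of 0.04. EPAS1, the hypoxia factor HIF-2 alpha, was higher at 26.3, 25 and 22.1 CPM against 7.65, 8.14 and 5.93 CPM (1.75, SE 0.10, adjusted p = 2.12e-16), and HIF1A was lower (-0.26). Hexokinase HK2 (0.91) was higher, and the glycolytic enzymes PFKP (-0.66) and LDHA (-0.29) were lower.

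Of 34 stress response genes of the ATF4 and unfolded protein pathways 15 were higher (44.1%) and 3 lower (8.82%), with a median of 0.11. Over protein-coding genes 28.1% were higher and 25.1% lower. With upper-quartile scaling 15 of the stress genes were higher and 9 lower, with a median of 0.04. Differences were small: HYOU1, a chaperone of the endoplasmic reticulum, measured 352, 357 and 368 CPM against 270, 275 and 276 CPM (0.39, SE 0.03, adjusted p = 1.40e-13). ATF4 itself (-0.01, adjusted p = 0.742) and the chaperone HSPA5 (0.06, adjusted p = 0.129) did not pass. ATF4 passed as lower with upper-quartile scaling (-0.08, adjusted p = 0.0145), and HSPA5 as higher when SUDS3 knockdown replicate 2 was left out (0.09, adjusted p = 0.0449). Of 20 cytosolic tRNA synthetases 8 were higher and 4 lower, with a median of 0.06 that turned to -0.01 under upper-quartile scaling, with 7 each way; WARS (0.54) and KARS (0.39) were higher and LARS (-0.29) lower.

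Ribosomal protein genes were lower in the SUDS3 knockdown by small and even amounts. Of 47 large-subunit genes 41 were lower (87.2%) and none was higher, with a median log2 fold change of -0.22. Of 32 small-subunit genes 28 were lower (87.5%) and 1 was higher, with a median of -0.20. Among all genes at an average log2 CPM of 7 and above, 42.6% were lower. The list medians ranged from -0.29 to -0.21 for the large and from -0.26 to -0.18 for the small subunit over the scalings and tests tried. Per library, the large-subunit median against the control mean was 0.13, 0.12 and 0.09 in the PHF12 knockdown and -0.13, -0.13 and -0.11 in the SUDS3 knockdown. RPS25 measured 547, 581 and 589 CPM against 794, 791 and 758 CPM, with controls from 659 to 678 CPM (-0.45, SE 0.03, adjusted p = 1.67e-15). RPL26 measured 501, 517 and 535 CPM against 681, 687 and 665 CPM (-0.39, SE 0.03, adjusted p = 3.39e-14). RPS4X, among the most abundant, measured 3028, 2996 and 3005 CPM against 3722, 3753 and 3581 CPM (-0.29, SE 0.02, adjusted p = 3.36e-13). The exception was RPS21, at 351, 335 and 339 CPM against 151, 150 and 149 CPM, with controls from 318 to 324 CPM (1.19, SE 0.03, adjusted p = 1.13e-26). Ribosomal protein genes have many processed pseudogenes, and reads shared with them make single values uncertain.

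Chaperone and proteasome genes were lower more often than higher. So were all genes at an average log2 CPM of 7 and above (42.6% lower, 31.3% higher, median -0.04). Of 30 heat shock proteins and chaperonins 14 were lower (46.7%, near that share) and 5 higher (median -0.04). Of 32 proteasome subunits 17 were lower (53.1%) and 4 higher (-0.11). With upper-quartile scaling the higher counts were 1 and 2, and the medians -0.11 and -0.18. PTGES3 (ENSG00000110958, chr12:56663341-56688408, -), the HSP90 cochaperone p23, measured 268, 248 and 271 CPM in the SUDS3 knockdown, 901, 933 and 887 CPM in the PHF12 knockdown and 836 to 916 CPM in the controls (-1.79, SE 0.03, adjusted p = 5.48e-31). Here the SUDS3 knockdown was the low group, at 30.2% of the control mean, while the PHF12 knockdown overlapped the controls. CHORDC1, another HSP90 partner, was lower too (-0.66), HSP90AA1 slightly so (-0.16), and HSPD1 did not pass (-0.02, adjusted p = 0.556), though it passed as lower with upper-quartile scaling (-0.09, adjusted p = 0.00610). Among chaperonin subunits CCT4 (-0.32) and CCT7 (-0.26) were lower while CCT8 was higher, at 631, 624 and 645 CPM against 435, 452 and 432 CPM (0.53, SE 0.03, adjusted p = 7.00e-18). PSMD13, a subunit of the proteasome's regulatory particle, was higher at 162, 172 and 172 CPM against 77.1, 77.2 and 81.3 CPM, with controls from 143 to 148 CPM (1.10, SE 0.04, adjusted p = 1.32e-22). Other subunits of the particle, PSMC3 (-0.35) and PSMC5 (-0.32), were lower.

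Of the 13 mitochondrially encoded genes 9 were lower (69.2%) and none was higher (median -0.16). Against the control mean, the list median was 0.06, 0.07 and 0.06 in the PHF12 knockdown and -0.06, -0.10 and -0.11 in the SUDS3 knockdown. The control libraries themselves stood at 0.10, -0.03 and -0.07. They thus reached above the PHF12 knockdown and overlapped the SUDS3 knockdown. Of all genes at an average log2 CPM of 7 and above, 42.6% were lower and 31.3% higher. MT-ND2 measured 2452, 2264 and 2312 CPM against 2737, 2824 and 2831 CPM (-0.26, SE 0.03, adjusted p = 1.71e-08), and MT-ND6, which lies on the other strand of the mitochondrial genome, also differed (-0.40). MT-CO1 did not pass (-0.07, adjusted p = 0.194), but passed as lower without control replicate 1 (adjusted p = 0.0143) or control replicate 3 (adjusted p = 0.00563). It also passed as lower with the 6 knockdown libraries alone (adjusted p = 0.00224) and with upper-quartile scaling (-0.14, adjusted p = 0.0121). The same held with a replicate block (adjusted p = 0.0175) and without a low-count filter (adjusted p = 0.0109). Nuclear genes of respiratory complex I mostly did not pass: 22 of 37 did not, 11 were lower (29.7%, against 25.1% of protein-coding genes) and 4 higher (median -0.04). With upper-quartile scaling none was higher.

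**Figure D5:**
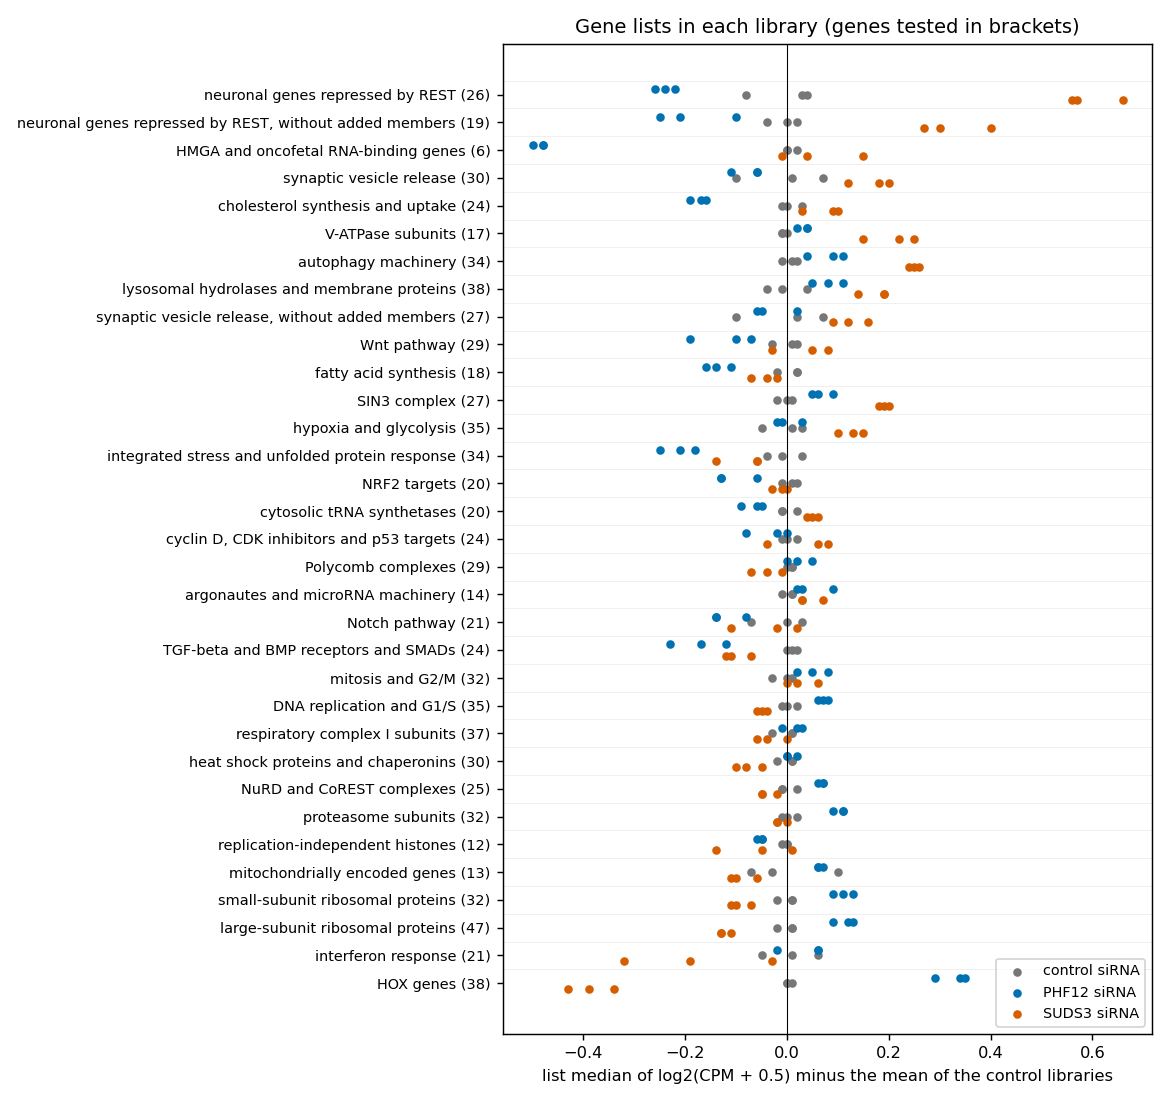
Each row is a gene list and each point a library, placed at the list's median difference from the mean of the control libraries on a log2(CPM + 0.5) scale. The HOX list separates the knockdowns the most in the negative direction (-0.43 to -0.34 against 0.29 to 0.35). In the positive direction the REST-repressed list does (0.56 to 0.66 against -0.26 to -0.22), with 7 of its 26 genes added from earlier results of these data. Without them, in a row of its own (0.27 to 0.40 against -0.25 to -0.10), it no longer leads the HMGA and oncofetal list (-0.01 to 0.15 against -0.50 to -0.48). The ribosomal protein lists separate by a small amount on either side of zero.

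Signalling genes differed at single receptors and effectors more than as lists. In the Wnt list 13 of 29 tested genes were higher (44.8%) and 4 lower (13.8%), with a median of 0.13 (0.06 with upper-quartile scaling). Over protein-coding genes 28.1% were higher and 25.1% lower. CTNNB1, beta-catenin, measured 495, 469 and 497 CPM in the SUDS3 knockdown, 260, 286 and 274 CPM in the PHF12 knockdown and 499 to 520 CPM in the controls (0.83, SE 0.03, adjusted p = 1.01e-21). The transcription factor TCF7 (1.30) and the receptors FZD4 (1.12), FZD1 (1.04) and FZD5 (0.77) were higher, and the receptors FZD8 (-0.82), FZD10 (-1.94) and LGR5 (-0.85) were lower. In the TGF-beta and BMP list 7 of 24 were higher (29.2%, near the 28.1% of protein-coding genes) and 8 lower, with a median of 0.02 that turned to -0.05 under upper-quartile scaling. TGFBR1, the type I receptor for TGF-beta, measured 19.6, 17.9 and 20.1 CPM against 60.6, 70.8 and 67.9 CPM, with controls from 62.6 to 67.3 CPM (-1.79, SE 0.06, adjusted p = 8.62e-23). TGFBR2, the type II receptor, went the other way, at 20.4, 18.2 and 19.7 CPM against 12.1, 12.3 and 11 CPM (0.72, SE 0.09, adjusted p = 4.41e-08). The receptor pair thus differed in direction. ID2, a target of BMP signalling, was higher at 186, 181 and 189 CPM against 81.4, 84.6 and 94.5 CPM (1.10, SE 0.04, adjusted p = 1.76e-21), as was ID3 (0.56).

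In the Notch list 5 of 21 were higher (23.8%, near the background) and 4 lower (0.03, and -0.04 with upper-quartile scaling). HEY1, a Notch target, was lower at 172, 167 and 176 CPM against 291, 289 and 288 CPM (-0.75, SE 0.03, adjusted p = 1.54e-20), while the receptor NOTCH1 (0.65) and HES6 (0.68) were higher. Of 21 tested interferon response genes 7 were lower (33.3%) and 4 higher (19.0%), with a median of -0.41, most of them at low levels. Over protein-coding genes 25.1% were lower and 28.1% higher. The sensor EIF2AK2 (-0.39) and IFIT5 (-0.51) were lower and IFIT1 (1.12) higher.

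Cell cycle genes showed small differences in both directions. Of 35 replication and G1/S genes 10 were higher (28.6%) and 16 lower (45.7%), with a median of -0.03. Of 32 mitosis genes 8 were higher (25%) and 11 lower (34.4%), with a median of -0.03 as well. Over protein-coding genes 28.1% were higher and 25.1% lower. With upper-quartile scaling 7 replication genes were higher and 18 lower, and 7 mitosis genes were higher and 15 lower. Both medians were then -0.10. RRM1, a ribonucleotide reductase subunit, was lower at 314, 319 and 335 CPM against 431, 442 and 438 CPM (-0.44, SE 0.03, adjusted p = 1.34e-14), and cyclin CCNE2 was lower too (-0.83). The GINS subunits of the replicative helicase, GINS1 (0.79) and GINS3 (0.70), were higher. Among mitotic genes, the checkpoint kinase BUB1 (0.50) and cyclin CCNA2 (0.45) were higher, the cytokinesis factor ANLN (-0.46) and the centromeric histone CENPA (-0.66) lower, and cyclin CCNB1 did not pass (0.06, adjusted p = 0.134). In the list of D cyclins, CDK inhibitors and p53 targets 10 of 24 were higher and 4 lower, with a median of 0.05 that was -0.02 under upper-quartile scaling. CDKN1B, the inhibitor p27, measured 77.8, 71.9 and 73.5 CPM against 39.8, 39.7 and 43.2 CPM, with controls from 53.1 to 55.9 CPM (0.86, SE 0.05, adjusted p = 7.66e-16). CCND2 (0.75), CCND1 (0.57) and RB1 (0.54) were higher, the p53 target TP53I3 (-0.96) was lower, and CDKN1A, the inhibitor p21, did not pass (0.00, adjusted p = 0.978).

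In the remaining chromatin and RNA lists, single members stood out. Of 29 Polycomb genes 8 were higher and 8 lower, 27.6% each way and near the background (0.03, and -0.04 with upper-quartile scaling): the ligase RNF2 (0.61) and AEBP2 (0.53) were higher, and CBX6 (-0.69), PHF19 (-0.40) and the methyltransferase EZH2 (-0.25) lower. Of 12 replication-independent histone genes 7 were lower and 3 higher (-0.16), among them H2AFZ (-0.29) and H2AFX (-0.23) as lower. In the microRNA machinery 5 of 14 tested genes were higher and 3 lower (0.03, and -0.04 with upper-quartile scaling); AGO1 (0.54) and DICER1 (0.47) were higher and DGCR8 (-0.28) lower. Beside HMGA2, the oncofetal RNA-binding genes IGF2BP3 (0.93), IGF2BP2 (0.44), LIN28B (0.32) and IGF2BP1 (0.19) were higher, and HMGA1 (-0.28) was lower. IGF2BP3 measured 98.5, 89.3 and 89.8 CPM in the SUDS3 knockdown, 46.1, 47.8 and 51.9 CPM in the PHF12 knockdown and 82.5 to 91.8 CPM in the controls. Some members of that list were also known from earlier results of these data.

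The hexamers printed above were spread unevenly over the calls. Among 13767 protein-coding genes with a 3′ UTR, 30.7% hold AATCAC in the longest one, against 42.6% of the genes higher in the SUDS3 knockdown, 24.6% of the lower genes and 62.7% of those at least 2-fold higher. TACATT stands in 40.9% of all, 40.1% of the higher and 49.1% of the lower genes, and in 39.5% of those at least 2-fold higher and 43.4% of those at least 2-fold lower. Of 1500 genes with AATCAC but not TACATT 44.5% were higher and 14.4% lower (median 0.18), and of 2902 genes with TACATT but not AATCAC 19.6% were higher and 36.8% lower (-0.09). Genes with neither, 6636 in all, were split into 25% higher and 23.3% lower (-0.01). The hexamers are more frequent in longer 3′ UTRs, so the genes were also divided into 4 equal bins of 3′ UTR length. In the bin of shortest UTRs, with a median of 317 bases, AATCAC-only genes were 40.9% higher and 13.6% lower, and in the longest, with a median of 4130 bases, 43.6% and 17.3%. TACATT-only genes were 14.3% higher and 34.4% lower in that shortest bin and 21.7% and 36.4% in the longest. Genes with neither were 20.4% higher and 24.4% lower in the shortest bin and 32.8% and 24.2% in the longest. In higher calls the AATCAC-only genes thus stood less far above the genes with neither in the longest bin. Of the 12 largest positive differences 7 hold AATCAC, PRKX with 9 sites, and 3 hold TACATT; of the 12 largest negative differences 5 hold TACATT and 3 AATCAC. CHGA, SYP, STMN3 and SYT11 hold neither. Whether the hexamers take part in any gene's difference was not tested.

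With only the members that hold neither hexamer, 9 of 30 list medians stayed within 1 SD of the reported one, and the other 21 moved by more. That SD was of the list median over the 3 SUDS3 knockdown libraries, each set against the PHF12 knockdown mean. The HOX list had 16 of 21 lower and none higher (median -0.82), the REST-repressed list 11 of 18 higher and 1 lower (1.13; 7 of 14 and 1 without the added genes, 0.89), the large-subunit ribosomal list 30 of 34 lower and none higher (-0.24) and the small-subunit list 21 of 22 lower and none higher (-0.22). The cholesterol list had 6 of 12 higher and 2 lower (0.18). The fatty acid list kept only 3 such members, with a median of -0.01 in place of 0.13, and the hypoxia list had 4 of 19 higher and 6 lower (0.03 in place of 0.11). The lysosomal median fell from 0.15 to 0.03 and the HMGA and oncofetal one from 0.38 to 0.08. The microRNA machinery median went from 0.03 to -0.08, with none of 6 members higher and 3 lower, and that of the mitosis genes from -0.03 to 0.02.

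Library totals ran from 37962926 to 50946148 counts, with 4.98% to 5.67% of counts from mitochondrially encoded genes. Of the counts from 1 to 50, 99.7% were multiples of 4, which the sources used here do not explain. All 7 HEK293T markers were tested, with summed levels of 1860 to 1901 CPM in the PHF12 knockdown, 1693 to 1712 CPM in the SUDS3 knockdown and 1844 to 1866 CPM in the controls. Of the 7, 2 were higher and 4 lower in the SUDS3 knockdown. VIM was at a mean of 547 CPM in the SUDS3 and 753 CPM in the PHF12 knockdown, XRCC5 at 646 and 707 CPM, CDH2 at 42.6 and 73.4 CPM and NEFM at 367 and 237 CPM; PAX2 was low, at 1.30 and 1.34 CPM. Markers of other cells were at or near 0: PTPRC, CD3E, HBB, THY1, SERPINA1, KRT20 and KRT14 had no count in any library, and 2 of 6 fibroblast, 2 of 6 blood, 1 of 5 liver, 2 of 5 epithelial and 1 of 4 endothelial markers had enough counts to be tested. Fibroblast markers summed to 21.0 to 23.7 CPM in the SUDS3 knockdown and 16.6 to 18.3 CPM in the PHF12 knockdown, nearly all of it COL1A1, and epithelial markers to 5.14 to 5.46 and 5.97 to 7.70 CPM.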

How the data were processed

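RNA was sequenced from HEK293T cells in 9 libraries, 3 per siRNA. Per the submitters' processing notes, Trimmomatic 0.36, HISAT2 2.1.0, HTSeq and the GRCh38 build were used; no source used here gives the strand setting or the annotation. Raw counts per gene and TPM values (length-scaled, summing to 1000000 per library) are the units deposited by the authors. All 58735 identifiers matched GENCODE 29. Of counts above 0, 96.1% were multiples of 4, which counts divided by 4 as an alternative addresses; precision is limited accordingly.

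Counts were tested with edgeR 4.0.16 (R 4.3.3): filterByExpr with a minimum count of 10, TMM, robust quasi-likelihood fit of 3 group means over all 9 libraries, contrast SUDS3 minus PHF12 knockdown, Benjamini-Hochberg adjustment. On simulated data with 17639 genes, 28 of 50 genes changed 1.25-fold, 38 of 50 changed 1.5-fold, 48 of 50 changed 2-fold and 49 of 50 changed 3-fold were recovered, and 12 of 175 calls were false. That was a single draw in which far fewer genes changed than the 7937 called in the data. The adjusted p depends on how many genes change, so these shares do not carry over to the comparison. Alternatives used DESeq2 1.42.0, other scalings and filters, counts divided by 4, the 6 knockdown libraries alone, a replicate block, each library left out, and limma 3.58.1 on log2(TPM + 1) and log2(TPM + 0.1). The REST and synaptic lists without members added from earlier results were an alternative chosen after seeing the data.

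Genes named are the targets, all SIN3 genes, the 12 largest differences each way (protein-coding, passed, average log2 CPM of at least 1, libraries not overlapping) and the 3 members of each of the 31 lists with the smallest p. A further 103 list members were added to these after their values were seen. The comparison, members and lists were chosen with earlier results of these data known, so lists are described by counts and medians with no test. Of 133 genes named by the rule, 58 share a locus with a tested antisense gene and 14 with a tested sense gene, and for 34 the annotation names pseudogenes, so reads may be shared. A few list members counted in the totals are not reported here by name.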

Additional observations from a re-analysis of the deposited data

How the results depend on the processing

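The count of genes that differed stayed within 1.5 times the reported one under every alternative tried: 4053 higher and 3937 lower with DESeq2, and 3693 to 4104 higher and 3475 to 3891 lower with each library left out in turn. The replicate block gave 4147 higher and 3834 lower. Same-numbered SUDS3 and PHF12 knockdown libraries did not deviate together gene by gene (correlations of -0.0591, -0.0694 and -0.0370 over 12728 genes). Such correlations cannot show whether same-numbered libraries shared a culture or a batch. In every group replicate 2 had the highest library total and replicate 3 the lowest. Genes at least 2-fold different fell to 151 higher and 152 lower in limma on log2(TPM + 1), whose added 1 shrinks differences of low genes. Upper-quartile scaling moved the median of all genes by -0.07 and turned the list medians of the tRNA synthetases (-0.01), Notch (-0.04), TGF-beta and BMP (-0.05) and Polycomb (-0.04) genes. With members that hold neither hexamer the medians of the fatty acid (-0.01), microRNA machinery (-0.08) and mitosis (0.02) genes turned, and the Polycomb median to -0.02 with members that overlap no tested gene on the opposite strand; the cause was not tested. Of 236 genes given a result, 222 kept their call under every alternative run; among the other 14, upper-quartile scaling made RBBP4 pass as lower (-0.11, adjusted p = 0.00213). Upper-quartile scaling also took the cell cycle inhibitor list to -0.02 and the microRNA machinery to -0.04. In simulated data, where far fewer genes changed than were called here, 28 of 50 genes with the smallest simulated fold change were recovered.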
